A study of Homo sapiens with 12 samples.

Results

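The comparison concerns the total RNA of a pair of human hepatoma lines before any precipitation: 3 input libraries of HuH-7 cells that stably express V5-tagged HuR with the K120/182R change were set against 3 input libraries of HuH-7 cells that stably overexpress V5-tagged wild-type HuR. These 6 libraries were taken by their labels from the 12 of the study, and all genes of their count files entered the comparison. The other 6 libraries are RNA bound to V5-tagged HuR in the same 2 lines (RNA immunoprecipitation, RIP), and they are used here only to set the line difference in a second set of libraries beside that in the inputs. HuH-7 is an established line from a human liver cancer, and per its title the study asks how SUMOylation of HuR bears on senescence in liver cancer.

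The WT-HuR group is labelled as HuR wild type overexpression and the mutant group as expression of HuR K120/182R, in which 2 lysines are replaced by arginine. No treatment is named for either, although the names of all the count files carry DMSO, a common solvent. The labels do not say whether each line is a pool or 1 clone, which promoter drives the added copy, whether the cells keep their own HuR, or whether replicates came from separate cultures. Each line is therefore 1 transduced population sampled in 3 libraries, p-values here reflect only how these libraries scatter, which may be technical, and the change in HuR cannot be told apart from any other difference between the 2 lines.

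HuR, the product of ELAVL1, is an RNA-binding protein that recognises stretches rich in U and A, mostly in introns and in the 3′ ends of mRNAs, and is known for raising the stability and translation of many mRNAs of growth, stress and inflammation. In liver it has been linked to proliferation, dedifferentiation and cancer. In SUMOylation a lysine is joined to SUMO, a relative of ubiquitin, and exchange of that lysine for arginine keeps the charge but removes the attachment site. Input RNA shows what a line expresses, against which any recovery with HuR is read.

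The lysine codons that the mutant name refers to are shown here in the reference coding sequence of ELAVL1, since they are the designed difference between the lines. Each is given with 12 coding bases on either side, 5′ to 3′ on the minus strand of GRCh37, and the capitals mark the codon. Codon 120 lies in exon 4 at chr19:8038679-8038681, and codon 182 in exon 5 at chr19:8032559-8032561. The counts are per gene, so which base the lines carry there was not read.

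lysine codon 120: accatgacccagAAGgacgtagaagac

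lysine codon 182: cccatcacagtgAAGtttgcagccaac

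ELAVL1 itself (ENSG00000066044, chromosome 19, 8023457 to 8070543, minus strand) was at 64.2, 54.1 and 56.4 CPM (counts relative to the normalized library size) in the 3 WT inputs. In the mutant inputs it was at 52.7, 48.0 and 44.4 CPM. The groups did not overlap, and the log2 difference of mutant minus WT was −0.27 ± 0.12 (SE), which missed the threshold (adjusted p = 0.14). Scaled by total counts instead, the same difference was −0.72 with an adjusted p of 0.00277. In the V5 precipitates it was −0.34 (adjusted p = 0.056). Counts of a gene hold the reads of its added copy only where that copy matches the annotated exons, so the level of the added copies was not separated from that of the cells' own gene, and 7.58% of the exon length of ELAVL1 is shared with another annotated gene.

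The 6 inputs held 52052110 to 73149117 counts each. Libraries of 1 group were not copies of each other: chi-square over its degrees of freedom ran from 14.97 to 229. Protein-coding genes took 39.2%, 28.2% and 34.1% of the counts in the WT inputs and 26.5%, 23.8% and 25.4% in the mutant inputs; these groups did not overlap (exact two-sided permutation test, p = 0.10, the smallest that 3 against 3 libraries can give). Small structural RNAs, such as 7SL and 7SK, took 38.9% to 50.4% in WT and 48.4% to 49.9% in the mutant. On the first principal component (63.1% of the variance of 11296 genes) the lines separated, and on the second (20.4%) WT input 3 and mutant input 1 stood together apart from the other 4. Liver markers were abundant: AFP, alpha-fetoprotein of the fetal liver, was at 7098 to 9176 CPM in WT and 4415 to 5707 CPM in the mutant, and albumin (ALB) at 581 to 715 and 706 to 853 CPM. Of 18 immune cell markers 7 stayed under 10 counts in every input, and the highest were 2 hemoglobin genes, at 42 to 2915 and 171 to 1168 counts. Of 17 stromal and endothelial markers 13 stayed under 10 counts, with LYVE1, CLEC4M, DES and LRAT at 0. The summed CPM of the 5 markers that were tested was 5.24 to 6.09 in WT and 7.33 to 8.72 in the mutant. Most of it was RGS5, at 196, 128 and 152 counts in WT and 188, 221 and 279 in the mutant. Where genes share exons the counts may be mixed, since the strand setting is unknown; among genes named below this holds most for HMGCS1 (37.7% of its exon length), ZFAS1 (33.5%), ITGB3 (33.2%), PLAU (31.0%), CCT5 (30.8%), CEBPA (25.3%), IRF9 (23.9%), TUBB3 (21.3%), FZD4 (18.9%), FDPS (18.6%), MT1X (18.6%), COL18A1 (18.5%), IGF2BP3 (17.8%), KRT18 (17.1%) and FOXM1 (15.9%), besides those marked where they are described. Smaller shares are not given for every gene; they include TGFB2 (11.6%), APOM (10.99%), ITGA1 (7.47%) and LINC00654 (7.38%).

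Of 22984 genes tested, 1716 were higher and 2301 lower in the mutant inputs (edgeR's quasi-likelihood test, adjusted p under 0.05), which is 17.5% of all genes, 7.47% higher and 10% lower. Among protein-coding genes 1249 were higher and 1993 lower of 14006, or 8.92% and 14.2%. Counts in the lists of coding genes below are to be read beside these shares. Most differences were small: 551 of the genes called higher and 383 of those called lower passed 1 on the log2 scale. In 33.7% of all genes the 3 libraries of one line did not overlap those of the other. With scaling by total counts the median over all genes was −0.43 in place of 0.0029 and the calls went to 386 higher and 6822 lower, so a direction below means a direction relative to most other genes. Without WT input 1 there were 964 higher and 1231 lower, and without both WT input 3 and mutant input 1 there were 1251 and 1567.

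**Figure D1:**
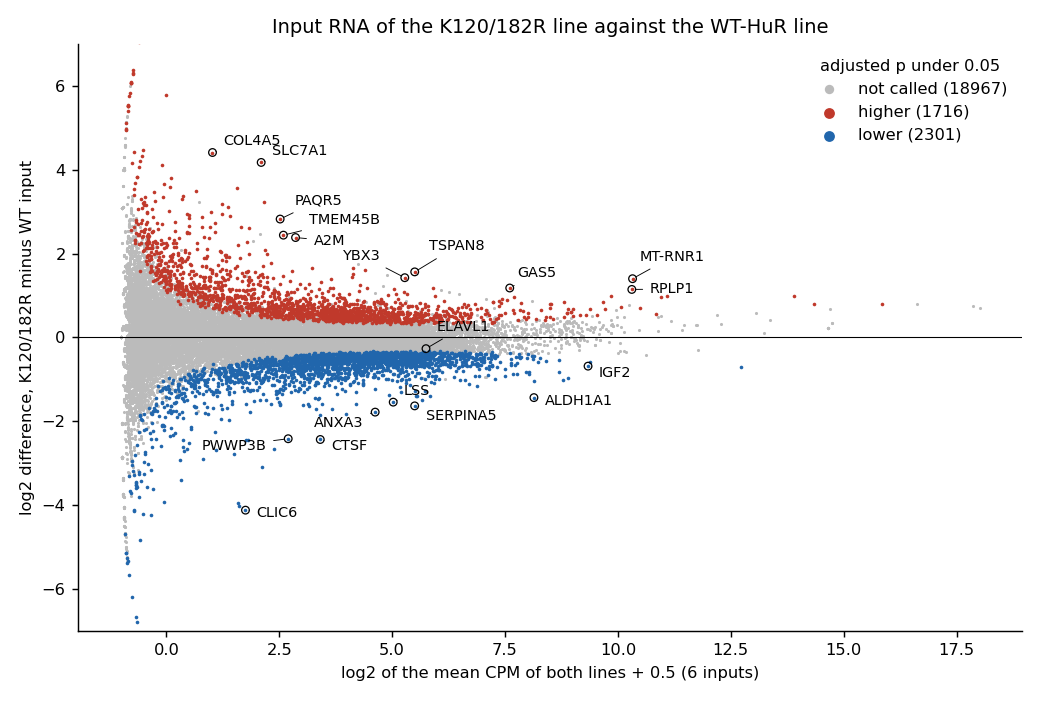
Log2 difference of mutant minus WT inputs (vertical axis) against the log2 of the mean CPM of both lines plus 0.5 (horizontal axis) for 22977 of 22984 genes, with 7 outside the axes. The 1716 genes called higher (red) and 2301 called lower (blue) lie mostly within 1 log2 unit of 0, SLC7A1, PAQR5, TMEM45B and A2M stand far above it and CLIC6, CTSF and PWWP3B far below it.

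Among protein-coding genes without overlap between the groups and with a mean log2 CPM of 2 or more, the largest increases were those of PAQR5, TMEM45B, A2M, AQP3 and S100P. PAQR5, a membrane progestin receptor (ENSG00000137819, chromosome 15, 69591251 to 69700119), was at 1.06, 1.47 and 1.37 CPM in the WT inputs and at 8.94, 8.66 and 9.89 CPM in the mutant inputs. Every mutant library stood several times above every WT library, with a log2 difference of 2.82 ± 0.17 (adjusted p = 1.21e-10); 12.7% of its exon length is shared with KIF23-AS1. TMEM45B, a transmembrane protein (chromosome 11, 129685743 to 129729898), went from 1.54, 2.41 and 1.24 CPM to 9.87, 9.36 and 8.72 CPM, a log2 difference of 2.44 ± 0.20. A2M encodes alpha-2-macroglobulin, a plasma inhibitor of many proteases (chromosome 12, 9220260 to 9268825). It was at 1.73, 2.57 and 2.25 CPM in WT and 10.7, 11.6 and 11.7 CPM in the mutant, a difference of 2.38 ± 0.20, and 8.88% of its exon length is shared with A2M-AS1. AQP3, a water and glycerol channel, was at 1.99, 1.99 and 2.10 CPM against 7.69, 6.86 and 6.19 CPM. The calcium-binding protein gene S100P was at 8.71, 7.65 and 8.02 CPM against 25.5, 27.7 and 24.3 CPM. In these genes the spread within a line was small beside the distance between the lines. The choice of called genes without overlap and with the largest differences favors this.

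The next 10 in rank were BEX1 (log2 difference 1.65), RCN1 (1.61), DDIT4 (1.58), TSPAN8 (1.56), IER5L (1.47), PLK2 (1.45), HSPB1 (1.44), YBX3 (1.42), IGFBP6 (1.42) and RASSF3 (1.402). TSPAN8, a tetraspanin of epithelial and tumor cells, was at 23.7, 24.3 and 20.0 CPM against 55.0, 74.1 and 71.5 CPM. YBX3, a cold-shock domain RNA-binding protein, was at 20.6, 19.7 and 22.1 CPM against 57.0, 54.3 and 56.3 CPM. RCN1, a calcium-binding protein of the endoplasmic reticulum, was at 10.7, 10.4 and 9.22 CPM against 31.7, 31.2 and 29.7 CPM. HSPB1, the small heat shock protein HSP27, was at 7.44, 9.74 and 9.88 CPM in WT and 35.4, 19.4 and 18.6 CPM in the mutant, highest in mutant input 1. IER5L shares 41.8% of its exon length with IER5L-AS1, so its value is uncertain.

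At the other end stood CTSF, PWWP3B, MT1F, TFEC and ANXA3. CTSF, cathepsin F, a cysteine protease of the lysosome (ENSG00000174080, chromosome 11, 66330935 to 66336350, minus strand), was at 18.1, 17.3 and 15.9 CPM in the WT inputs and 3.34, 3.59 and 2.54 CPM in the mutant inputs. Its log2 difference was −2.44 ± 0.16 (adjusted p = 1.94e-10). PWWP3B on chromosome X went from 10.8, 10.2 and 9.24 CPM to 1.61, 2.34 and 1.69 CPM, a difference of −2.42 ± 0.18. TFEC, a transcription factor of the MiT family, was at 26.1, 24.9 and 20.3 CPM against 5.63, 6.13 and 8.27 CPM. Annexin A3 (ANXA3, chromosome 4, 79472901 to 79531605) was at 37.5, 40.7 and 34.1 CPM against 11.1, 12.1 and 9.41 CPM. By the rule of choice, none of these genes had a mutant library above its lowest WT library.

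Genes of liver metabolism and secretion were among the next: AKR1D1, the steroid 5-beta-reductase of bile acid synthesis, had a log2 difference of −1.72, and SERPINA5, the protein C inhibitor of plasma, one of −1.63. SERPINA5 (chromosome 14, 95027779 to 95059455) was at 67.4, 70.1 and 65.3 CPM in WT and 21.6, 22.6 and 21.2 CPM in the mutant with little spread within either line. The kinesin KIF5C (−1.71), the nuclear ankyrin repeat protein ANKRD1 (−1.63), the phosphodiesterase PDE1A (−1.62), SLAIN1 (−1.61), MAGED2 (−1.59), the trefoil peptide TFF3 (−1.58), BEX4 (−1.58) and the actin bundler FSCN1 (−1.58) completed the 15. BEX1 and BEX4, members of 1 family on chromosome X, differed in opposite directions. Coding genes named below with larger differences than these 15 at each end were under the level set, overlapped between the groups or were not called.

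**Figure D2:**
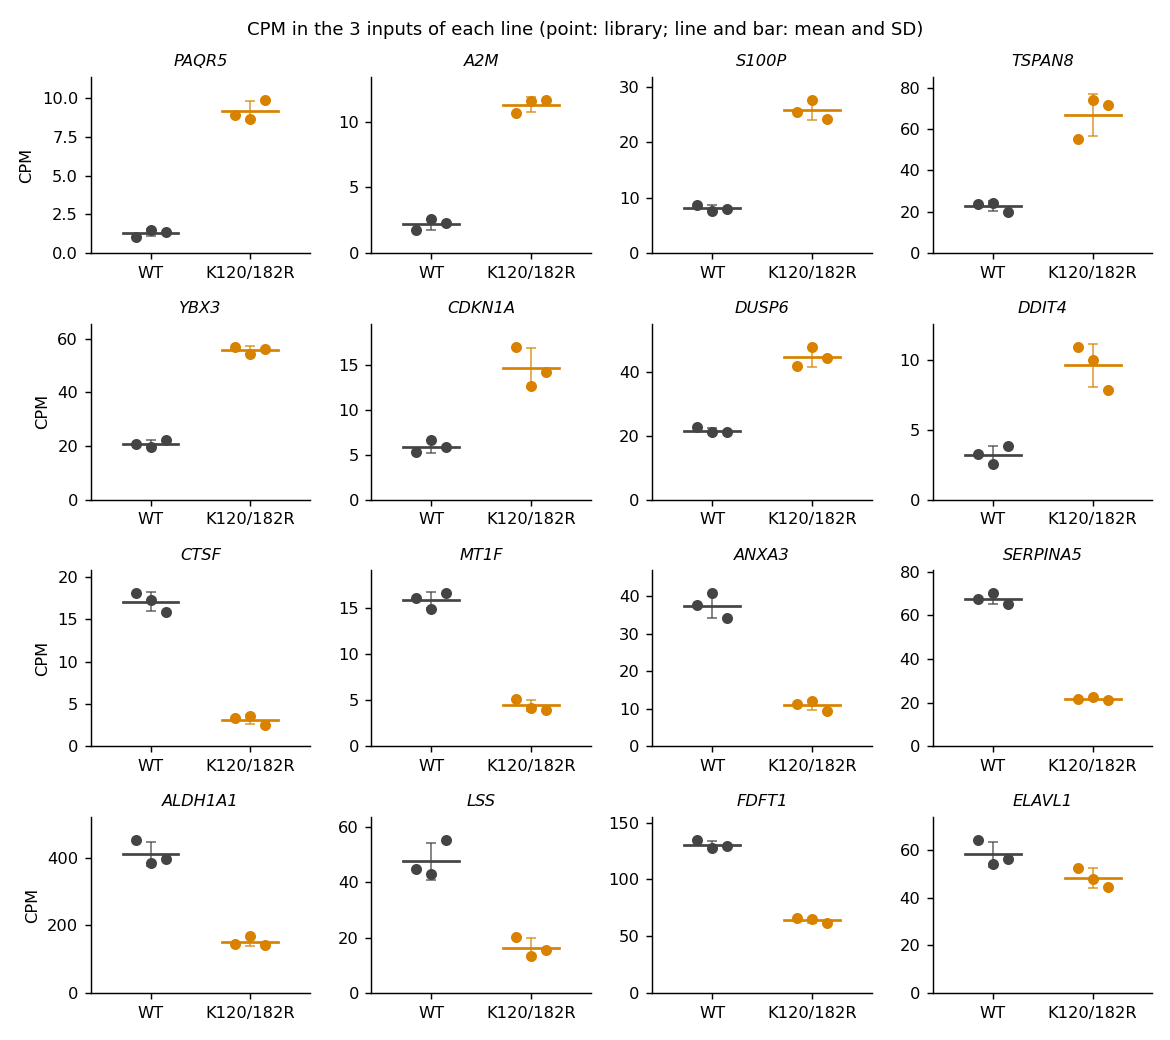
CPM (linear axes from 0) of 16 genes in each input library, with 1 point per library and the mean and SD of each line. The 3 mutant points lie above all 3 WT points for PAQR5 to DDIT4 and below them for CTSF to FDFT1, and ELAVL1 shows the smallest distance between the lines.

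Outside the protein-coding genes, the highest by the same rule were BCYRN1, MT-RNR1, LINC00511, GAS5 and SNHG8. GAS5, a noncoding snoRNA host gene known to accumulate when growth stops, was at 128, 129 and 101 CPM in WT and 207, 310 and 290 CPM in the mutant, a log2 difference of 1.18 ± 0.17, with 5.07% of its exon length shared with a neighbouring gene. LINC00511 was at 3.70, 2.93 and 3.92 CPM against 9.18, 8.29 and 9.22 CPM. BCYRN1, a short cytoplasmic RNA transcribed by RNA polymerase III that has near-identical copies in the genome, was at 7.99, 10.7 and 7.83 CPM against 31.0, 23.7 and 21.4 CPM. It differed by 1.52 ± 0.35 (adjusted p = 0.017), and its call was lost without WT input 1, WT input 3 or mutant input 1. The mitochondrial 12S rRNA MT-RNR1 was at 458, 681 and 974 CPM against 2295, 1538 and 1745 CPM, but its difference in the precipitates was −0.39 and its call in the inputs was lost without mutant input 1. SNHG8 shares 37.6% of its exon length with PRSS12. The lowest were LINC02701 (−1.59), CES1P1 (−1.47), IDI2-AS1 (−1.19), LINC00654 (−1.18) and PDZK1P1 (−1.13); IDI2-AS1 shares 18.01% of its exon length with IDI1 on the opposite strand, which was itself lower.

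A few genes were close to absent in 1 of the 2 lines. By a rule set after their values were seen (a log2 difference of at least 3 and at least 50 counts in every library of the higher line), 10 genes qualified, 6 higher and 4 lower in the mutant. SLC7A1, the cationic amino acid transporter CAT1 and a known HuR target mRNA (chromosome 13, 30083551 to 30169825, minus strand), had 18, 18 and 16 counts in the WT inputs and 221, 272 and 297 in the mutant inputs, which is 0.380, 0.471 and 0.343 CPM against 6.59, 7.07 and 7.85 CPM. The log2 difference was 4.17 ± 0.26 in the inputs and 4.40 in the precipitates. Its nearest tested coding neighbours did not share this: UBL3 was lower (−0.64), and KATNAL1 (−0.36), POMP (−0.23) and SLC46A3 (−0.50) did not pass the test. COL4A5, a basement membrane collagen chain on chromosome X, had 6, 2 and 10 counts against 95, 126 and 101, a difference of 4.41 ± 0.39. NFIC (3.57), LINC02972 (3.24), CHN1 (3.17) and the calcium-binding protein gene S100A6 (3.11) were the other 4 that were higher. On the low side, CLIC6, a chloride channel protein of chromosome 21, had 246, 196 and 277 counts in WT and 10, 14 and 10 in the mutant (−4.12 ± 0.27). SAA4, a serum amyloid A gene, differed by −4.02 and the readthrough gene SAA2-SAA4 by −3.94; their exons overlap over 75.6% of SAA4, so they are 1 observation. NPPB, the gene of B-type natriuretic peptide, went from 6.68, 7.80 and 6.07 CPM to 0.954, 0.884 and 0.582 CPM. All 10 were called in the same direction in the precipitates, where 9.87% of all genes were called higher and 9.76% lower. Of all genes called in the inputs, 50.35% of the higher and 51.63% of the lower were called likewise there. The choice of large differences at these counts favors this. Without the count rule, 104 called genes passed 3 on the log2 scale.

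Most genes of cholesterol synthesis were lower in the mutant. The pathway builds sterols from acetyl-CoA, and its genes are known to be switched on together by SREBP2 when sterols are scarce. Of 30 tested genes of cholesterol and fatty acid synthesis, 20 were lower and 1 higher, beside 14.2% and 8.92% of all coding genes, and the median log2 difference was −0.73 beside −0.03 over all coding genes tested. Enzymes along the whole sterol route were among them: HMGCS1 (−0.87), MVD (−1.10), IDI1 (−1.12), FDPS (−0.92), FDFT1 (−1.02), SQLE (−0.77), LSS (−1.54), CYP51A1 (−0.96), MSMO1 (−0.98), SC5D (−1.18) and DHCR7 (−0.92). FDFT1, squalene synthase, was at 135, 127 and 130 CPM in WT and 66.0, 64.9 and 61.6 CPM in the mutant. LSS, lanosterol synthase, was at 44.7, 43.0 and 55.3 CPM against 20.1, 13.3 and 15.7 CPM, and it lies on chromosome 21, where most expressed genes were lower. No mutant library of FDFT1 or LSS reached the lowest WT library.

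Not every gene of the list moved that way. SREBF1, the gene of the transcription factor SREBP1, was higher (23.6, 28.8 and 32.7 CPM against 46.4, 37.3 and 35.9 CPM, a difference of 0.49), a call that was lost without WT input 1 or mutant input 1. SREBF2 (0.10) and fatty acid synthase FASN (0.12) did not pass the test. The desaturases FADS2 (−0.84), SCD (−0.58) and FADS1 (−0.53) were lower. Leaving out 1 library left 18 to 20 members lower, and without WT input 3 and mutant input 1 there were 19. The count was 24 with scaling by total counts and 22 with the trend in base composition removed. In the precipitates 22 members were lower and 1 higher.

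Metallothioneins, small cysteine-rich proteins that bind zinc and copper and are switched on by metals through the factor MTF1, were also lower. Of 12 tested genes of the metal response 7 were lower and none higher by edgeR, by the unadjusted p at 0.05 (9 lower, 0 higher) or by DESeq2 (8 lower, 0 higher), with a median of −0.73. The list also holds genes other than metallothioneins, and SLC30A1 and TFRC (−0.39) were among the 7 lower. MT1F was at 16.0, 14.9 and 16.5 CPM in WT and 5.10, 4.16 and 3.96 CPM in the mutant (−1.85 ± 0.19). MT1E was at 19.4, 21.5 and 16.8 CPM against 11.1, 10.6 and 7.19 CPM, and MT2A at 14.9, 14.8 and 18.1 CPM against 9.72, 9.70 and 9.41 CPM. MT1X (−0.67, adjusted p = 0.0862) and the weakly expressed MT1G (−2.01, adjusted p = 0.109) did not pass. The zinc exporter SLC30A1, another gene known to answer to metals, was lower (37.3, 35.6 and 29.1 CPM against 20.4, 20.0 and 21.1 CPM), and MTF1 itself was at −0.01. The metallothionein genes are near-identical copies within 1 cluster on chromosome 16, so reads could be split between them and the single values are uncertain. Leaving out 1 library left 5 or 6 members lower. Over all coding genes 14.2% were lower and 8.92% higher. The summed CPM of the whole list, metallothioneins and other genes together, was 264 to 298 in WT and 185 to 205 in the mutant.

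The promoters of MT2A, which was lower, and of its cluster neighbour MT1X, which did not pass the test, are shown with the motif that binds MTF1 in capitals. The stretches are 120 bases of the plus strand of GRCh38.p14 as given by RefSeq, 5′ to 3′: MT2A at chr16:56608426-56608545 and MT1X at chr16:56682315-56682434. The letters TGCACNC and TGCGCNC were searched on both strands of the 250 bases before each start.

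MT2A: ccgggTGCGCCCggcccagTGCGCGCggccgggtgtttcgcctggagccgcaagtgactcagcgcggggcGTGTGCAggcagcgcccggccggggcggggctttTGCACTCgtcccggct

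MT1X: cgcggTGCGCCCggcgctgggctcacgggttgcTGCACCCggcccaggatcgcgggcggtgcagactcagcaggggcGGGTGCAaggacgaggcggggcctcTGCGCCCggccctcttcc

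MT2A held 7 matches in its 250 bases and MT1X 4, of which 4 each fall in the printed stretches. The motif is short and common, present in 24.7% of 27305 promoters, and 4 of 7 list members with a promoter in the table held it (MT2A, MT1X, SLC30A1 and TFRC). The sterol regulatory element, searched as TCACNCCAC, was found in 0.875% of all promoters and in 1 of 23 members of the cholesterol list, SREBF2. None of the 17 lower members with a promoter held these letters in the window searched.

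Immediate early genes, which are transcribed within minutes of growth factor or stress signals, leaned the other way. Of 23 tested, 13 passed as higher and 1 as lower, beside 8.92% and 14.2% of all coding genes. The median log2 difference was 0.61. DUSP6, a phosphatase that switches off ERK and is itself induced by it, was at 22.8, 21.3 and 21.1 CPM in WT and 42.1, 48.1 and 44.4 CPM in the mutant (1.05 ± 0.12). DUSP1 was at 6.40, 6.97 and 6.84 CPM against 13.5, 12.7 and 16.1 CPM. The feedback genes SPRY2 (0.62) and SPRY4 (0.83), and the AP-1 members JUN (0.73) and JUNB (0.63) were higher as well. MYC, the growth-promoting transcription factor, was at 20.9, 21.7 and 28.3 CPM against 45.6, 41.0 and 40.5 CPM (0.84 ± 0.12). The orphan receptor NR4A1 (1.21) and KLF4 (2.54, from 0.0845, 0.314 and 0.172 CPM to 1.401, 1.20 and 0.687 CPM) were higher, whereas FOS (0.60), EGR1 (0.61) and FOSB (1.46) did not pass the test. The lower member was CCN1 (−0.74), a matricellular protein that answers to YAP. Leaving out 1 library left 10 to 13 higher, and scaling by total counts left 4 with a median of 0.19.

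Genes of the integrated stress response, which the factor ATF4 activates when amino acids run short or proteins misfold, showed 13 of 31 higher and 3 lower, with a median of 0.38 that became −0.04 with scaling by total counts. Among all coding genes 8.92% were higher and 14.2% lower. Leaving out 1 library left 11 to 13 members higher and 1 lower, or 2 without mutant input 2. With the trend in base composition removed 12 were higher and 6 lower, with a median of 0.22. Higher members included DDIT4, an inhibitor of mTORC1 (3.26, 2.51 and 3.82 CPM against 10.9, 9.98 and 7.88 CPM), STC2 (1.65), ATF3 (1.13), CHAC1 (1.0), DDIT3 (0.86), the transporters SLC7A5 (0.66), SLC3A2 (0.59), SLC7A11 (0.54) and SLC7A1, and ATF4 itself at 237, 255 and 248 CPM against 324, 352 and 317 CPM (0.43 ± 0.13). The serine and amino acid enzymes of the same list did not share that direction: PSPH (−0.54) was lower, and PHGDH (−0.37), PSAT1 (−0.19), ASNS (−0.09) and TRIB3 (0.07) did not pass. DDIT3 shares 27.2% of its exon length with MARS1. In the precipitates 10 members were higher and 2 lower, and the difference of ATF4 there was 0.01.

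CHAC1 and ATF3 are shown because both were higher and both hold a match to the letters of the amino acid response element in the 250 bases before the start. The element was searched as TGATGNAA on both strands, is marked in capitals, and was found in 3.19% of 27305 promoters. Among 26 members with a promoter, 4 held it, the others being ASNS and AARS1, whose levels did not pass the test. Of the 12 higher members with a promoter, 2 held it. The stretches are chr15:40953257-40953376 and chr1:212565211-212565330 of GRCh38.p14, plus strand.

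CHAC1: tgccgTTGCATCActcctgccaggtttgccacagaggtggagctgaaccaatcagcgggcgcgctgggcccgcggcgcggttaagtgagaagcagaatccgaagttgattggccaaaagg

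ATF3: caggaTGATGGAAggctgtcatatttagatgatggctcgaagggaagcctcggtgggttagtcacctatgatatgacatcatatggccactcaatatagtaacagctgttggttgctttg

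Of 27 genes of endoplasmic reticulum folding and the unfolded protein response 7 were higher and 3 lower. Both lists of this paragraph stand beside 8.92% higher and 14.2% lower among all coding genes. HSPA5, the main luminal chaperone BiP, was at 208, 207 and 218 CPM against 293, 306 and 266 CPM (0.45 ± 0.12), and CANX (0.48), MANF (0.45), HSP90B1 (0.41) and PDIA3 (0.34) were higher too. The stress sensors ATF6 (−0.58) and EIF2AK3 (−0.44) and the cochaperone DNAJB9 (−0.75) were lower. The count of higher members was 2 without WT input 1, 4 without WT input 2 or mutant input 1 and 3 without both WT input 3 and mutant input 1, and the median of 0.21 became −0.23 with scaling by total counts. In the precipitates 3 members were higher and 4 lower, with a median of −0.09. In the cytosol, HSPA1A and HSPA1B (0.85 and 0.87) were higher, but these are near-identical copies and their counts cannot be separated. HSPA4 (−0.62), CCT5 (−0.45) and DNAJA1 (−0.38) were lower; DNAJA1, CCT5 and HSPA4 made up the 3 lower of 20 chaperone genes, of which 1 was left without WT input 1 or mutant input 3.

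Of 36 tested S phase genes 13 were lower and 1 higher, and the median was −0.30. Both lists of this paragraph stand beside 14.2% lower and 8.92% higher among all coding genes. RRM2, the regulated subunit of ribonucleotide reductase, was at 80.3, 78.7 and 81.3 CPM in WT and 45.4, 49.4 and 47.3 CPM in the mutant (−0.76 ± 0.11). The helicase subunit MCM6 was at 67.2, 60.6 and 69.2 CPM against 39.4, 44.7 and 40.7 CPM. The sliding clamp PCNA (−0.57) and CDC45 (−0.53) were lower, and the licensing factor CDT1 was higher (0.68). CCNE2 (−1.02) shares 37.1% of its exon length with INTS8. The count was 7 without WT input 1, 8 without mutant input 3 and 22 with the trend in base composition removed. Of 34 genes of G2 and mitosis 7 were lower, among them HMMR (−0.80) and CDC25C (−0.71), and 2 higher, FOXM1 (0.59) and PTTG1 (0.45); 3 were lower without WT input 1, and 4 without WT input 2 or mutant input 3. The proliferation marker MKI67 (0.15) and CDK1 (−0.14) did not pass.

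CDKN1A, which encodes the cell cycle inhibitor p21 and is known as a HuR target mRNA, was at 5.24, 6.599 and 5.85 CPM in WT and 16.99, 12.6 and 14.2 CPM in the mutant. Its log2 difference was 1.31 ± 0.15 (adjusted p = 2.06e-06) and its groups stood far apart. CDKN2A, whose products include p16, was at 8.88, 11.8 and 15.4 CPM against 28.9, 15.4 and 16.3 CPM (0.75, adjusted p = 0.0273); the lowest mutant library only just passed the highest WT library, and 15.3% of its exon length is shared with CDKN2B-AS1. LMNB1, lamin B1, whose loss is a common mark of senescent cells, was lower (37.5, 33.7 and 39.4 CPM against 25.4, 25.4 and 21.3 CPM). Of other genes known to be induced with CDKN1A after DNA damage, ZMAT3 (−1.03), RRM2B (−0.85) and SESN1 (−0.52) were lower, and TNFRSF10B (0.56) and PMAIP1 (0.95) higher. In all, 3 of 24 members of the cell cycle arrest list were higher and 7 lower, or 4 without WT input 1. Among all coding genes 8.92% were higher and 14.2% lower.

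Of 21 factors that senescent cells are known to secrete 6 were higher and 5 lower, beside 8.92% and 14.2% of all coding genes. The protease inhibitor SERPINE2 (0.676, 1.05 and 0.686 CPM against 2.98, 3.02 and 3.38 CPM) was higher. So were the insulin-like growth factor binding proteins IGFBP6 (1.42) and IGFBP4 (1.61), AREG (0.87) and VEGFA (0.60). The lower ones were 4 neutrophil-attracting chemokines, CXCL1 (5.07, 7.02 and 4.33 CPM against 2.03, 2.24 and 1.53 CPM), CXCL8 (−1.44), CXCL5 (−0.56) and CXCL6 (−3.17), and the protease PLAU (−0.64). Without WT input 2 there were 3 lower. All 4 chemokines are clustered on chromosome 4.

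**Figure D3:**
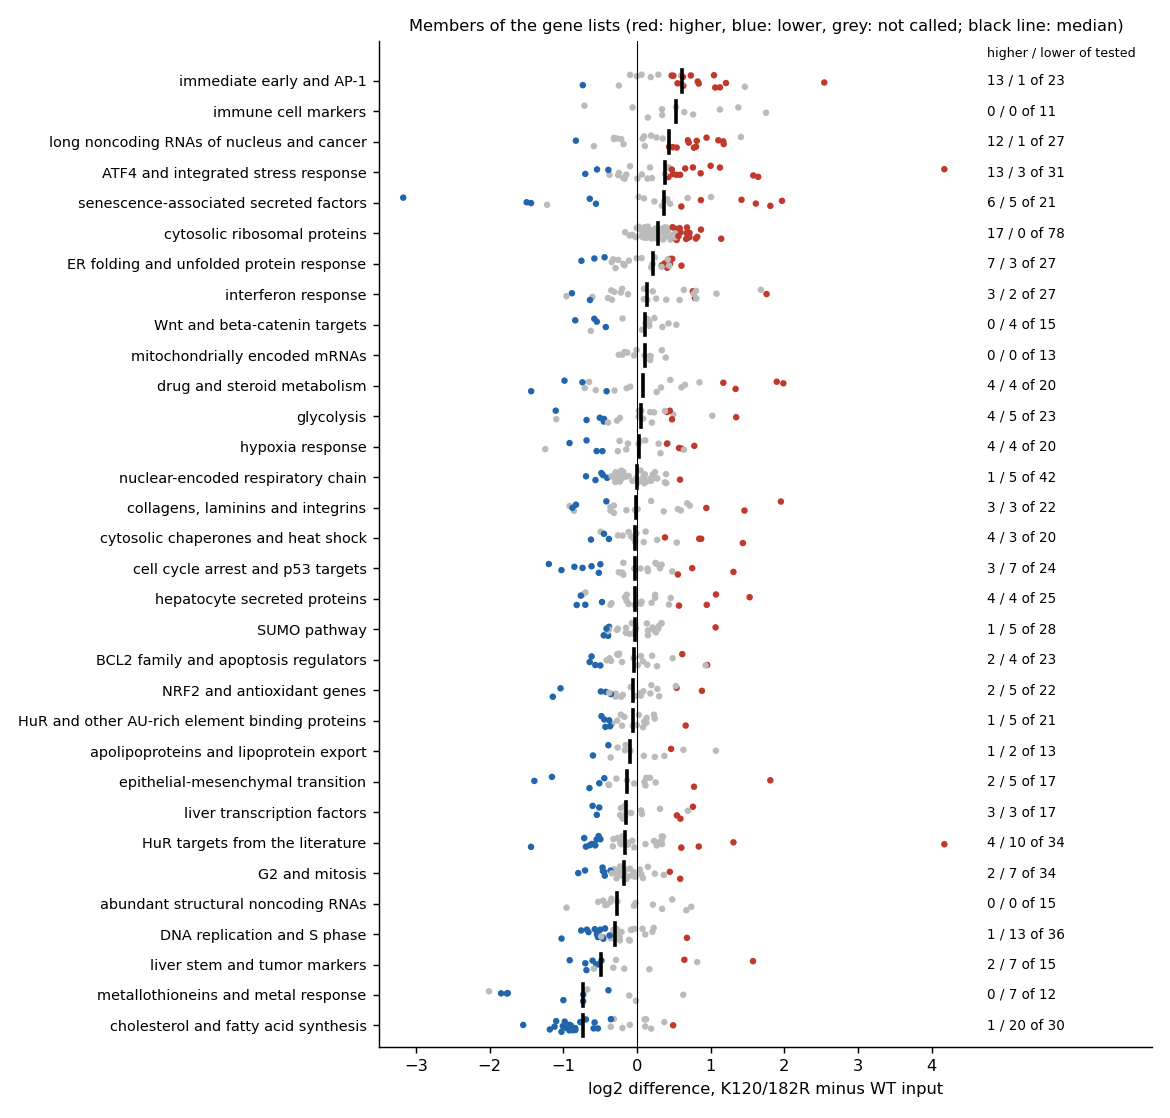
Log2 difference of mutant minus WT inputs for each tested member (point) of each gene list with at least 10 tested members, ordered by median (black line), with the counts called higher and lower at the right. Cholesterol synthesis and the list of metallothioneins and metal response lie lowest and immediate early genes highest. With scaling by total counts every median is lower, and only those of immediate early genes, immune markers and long noncoding RNAs are above 0.

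Classic HuR target mRNAs did not move as a block. Of 34 tested, 4 were higher (SLC7A1, CDKN1A, MYC and VEGFA) and 10 lower, with a median of −0.16. Among all coding genes 8.92% were higher and 14.2% lower, shares that also apply to the other list of this paragraph. The lower ones included CXCL8, TUBB3 (−0.72), PLAU, MCL1 (−0.62), EGFR (−0.59), XIAP (−0.57), HIF1A (−0.55), CYCS (−0.52) and DNMT3B (−0.50). MCL1, an antiapoptotic protein of the BCL2 family, was at 67.0, 64.7 and 61.1 CPM against 39.7, 40.6 and 45.5 CPM. EGFR, the epidermal growth factor receptor, was at 84.8, 85.2 and 83.0 CPM against 54.9, 55.9 and 57.6 CPM. In the precipitates 10 of the 34 were higher and 7 lower. Cyclin mRNAs known as HuR targets, CCNA2 (−0.23), CCNB1 (−0.19) and CCND1 (0.27), did not pass in the inputs. Of 21 genes of HuR and other AU-rich element binding proteins, 1 was higher (ZFP36, 0.66) and 5 lower, led by IGF2BP3 (−0.48); 1 to 3 were lower with 1 library left out, 1 without WT input 1 or mutant input 1, and none was higher without WT input 1.

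SP100, a component of nuclear bodies, was higher (2.30, 3.48 and 3.94 CPM against 4.95, 9.20 and 6.19 CPM, a difference of 1.07). The modifier SUMO3 (−0.39, on chromosome 21), the activating subunit SAE1 (−0.39) and the proteases SENP7 (−0.45) and DESI2 (−0.41) were among the 5 of 28 members that were lower, beside 1 that was higher. Over all coding genes 14.2% were lower and 8.92% higher. None of the 28 was called lower without WT input 1 or mutant input 2, 1 without WT input 2 and 3 without any other single library.

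Genes of liver function were called in both directions, beside 8.92% higher and 14.2% lower among all coding genes. Of 25 hepatocyte secreted proteins 4 were higher (PLG 1.53, SERPINC1 1.07, AHSG 0.95 and SERPINA6 0.57) and 4 lower (FGB −0.82, ITIH2 −0.76, AFP −0.70 and ORM1 −0.47). PLG was weakly expressed, at 28, 26 and 48 counts in WT and 91, 94 and 58 in the mutant. FGB, the beta chain of fibrinogen, was at 354, 334 and 313 CPM in WT and 181, 203 and 185 CPM in the mutant, whereas FGA (−0.16) and FGG (−0.36) did not pass. Without WT input 2 there were 2 lower, and by DESeq2 there were 7 higher. Of 15 fetal and tumor markers 7 were lower and 2 higher. Besides AFP the lower ones were PROM1 (81.0, 80.9 and 69.1 CPM against 36.6, 40.4 and 45.6 CPM), the fetal growth factor gene IGF2 (689, 831 and 874 CPM against 565, 460 and 464 CPM, with 20.4% of its exons shared with INS-IGF2), LIN28B (−0.60), IGF2BP3, KRT8 (−0.55) and KRT18 (−0.52). The biliary keratin KRT19 was higher, at 0.930, 1.41 and 0.9005 CPM against 3.82, 3.02 and 2.80 CPM, and so was MDK (0.64). H19 (−0.59), GPC3 (−0.32) and EPCAM (−0.28) did not pass.

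Among enzymes of drug and steroid metabolism, ALDH1A1, which makes retinoic acid from retinal, was at 453, 386 and 396 CPM in WT and 145, 168 and 142 CPM in the mutant (−1.44 ± 0.13). CYP1A1 (−0.98), GSTA1 (−0.74) and GSTA2 (−0.41) were lower too. The cytochrome CYP2B6 (1.501, 0.969 and 1.20 CPM against 4.62, 5.54 and 4.49 CPM), AKR1C1 (1.34) and ADH6 (1.17) were higher, and of 20 genes 4 were called in each direction. The liver transcription factors CEBPB (0.76) and the bile acid receptor NR1H4 (0.54) were among 3 of 17 that were higher, and HNF4G (−0.60), ONECUT2 (−0.55) and NR5A2 (−0.51) were lower. HNF4A (−0.15), FOXA1 (−0.23) and CEBPA (−0.16) did not pass. Only 1 gene in each direction was called without WT input 1. Of 13 apolipoprotein and lipoprotein genes APOM (0.46) was higher and APOH (−0.60) and LIPC (−0.39) were lower. None was higher without WT input 1, WT input 2 or mutant input 2 or with the trend in base composition removed, and 1 to 3 were lower with 1 library left out. The lists of this paragraph stand beside 8.92% higher and 14.2% lower among all coding genes.

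CLDN1, a tight junction protein, was at 165, 184 and 135 CPM against 68.0, 73.0 and 76.2 CPM (−1.15 ± 0.13), and both E-cadherin (CDH1, −0.44) and N-cadherin (CDH2, −0.65) were lower. TGFB2 (−1.39) and TGFBR1 (−0.51) were lower and SNAI1 (0.77) higher; vimentin (VIM) was at 0.25. Of 17 genes of epithelial-mesenchymal transition 5 were lower and 2 higher, and 3 were lower without WT input 1 or WT input 2. Over all coding genes 14.2% were lower and 8.92% higher. The integrin subunits ITGA1 (7.36, 5.21 and 4.89 CPM against 9.54, 11.3 and 12.7 CPM), ITGA2 (1.46) and ITGA5 (1.95) were higher, and ITGB3 (−0.83), ITGA6 (−0.42) and the collagen COL18A1 (−0.88, on chromosome 21) were lower, of 22. ITGA1 and ITGA2 are neighbours on chromosome 5.

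In energy and redox metabolism, ALDOC (1.35), TPI1 (0.48), PFKM (0.45) and SLC2A1 (0.41) were higher and PFKL (−1.10, on chromosome 21), PDK1 (−0.68), PFKFB4 (−0.50), PFKFB3 (−0.45) and PGK1 (−0.45) lower, of 23 glycolysis genes. Only 1 of these was higher without WT input 2, and 2 were lower without WT input 1 or mutant input 2. Catalase (CAT) was at 29.5, 25.7 and 27.5 CPM against 11.7, 12.6 and 13.2 CPM (−1.14 ± 0.13). GCLM, the modifier subunit of glutathione synthesis, was at 47.8, 49.9 and 38.3 CPM against 21.8, 20.1 and 24.4 CPM. These led 5 lower of 22 antioxidant genes, with GPX2 (0.88) and SLC7A11 higher; 2 were lower without WT input 1 or mutant input 3. In hypoxia genes, of 20, VEGFA, ADM (0.78), P4HA1 (0.57) and SLC2A1 were higher and LOX (−0.92), PDK1, HIF1A and BNIP3L (−0.47) lower. The Wnt receptor FZD4 (−0.84), CTNNB1 (−0.58), DKK1 (−0.55) and GLUL (−0.42) were lower of 15 Wnt genes and none was higher by edgeR (1 at an unadjusted p under 0.05, 1 by DESeq2). Of 27 interferon genes 2 were lower, among them RIGI (−0.64), and HLA-C (1.76), ISG20 (0.79) and IRF9 (0.76) were higher; 1 was lower without WT input 1 or mutant input 1, and 1 was higher without both WT input 3 and mutant input 1. In the BCL2 family, MCL1, XIAP, BCL2L11 (−0.50) and BOK (−0.64) were lower and PMAIP1 (0.95) and BMF (0.62) higher, of 23. Every list of this paragraph stands beside 8.92% higher and 14.2% lower among all coding genes.

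Of 78 genes of cytosolic ribosomal proteins 17 were higher by edgeR, and none was lower by edgeR, by DESeq2 or at an unadjusted p under 0.05. In all, 73 of 78 were above 0 and the median was 0.29, which became −0.15 with scaling by total counts, where 1 was higher and 3 lower. RPLP1, an acidic stalk protein, was at 669, 766 and 934 CPM in WT and 1786, 1769 and 1680 CPM in the mutant. RPS26 (0.87), RPS16 (0.82), RPS14 (0.80) and RPS24 (0.69) were next. These genes have many processed pseudogenes that could share reads. Among all coding genes 8.92% were higher. The count of higher genes was 7 without WT input 1, 9 without WT input 2, 11 without WT input 3, 8 without mutant input 2, 29 by DESeq2 and 39 with only the 6 inputs fitted. Among long noncoding RNAs of the list 12 of 27 were higher and 1 lower, beside 4.77% and 4.07% of 4424 long noncoding genes tested. Besides GAS5 and SNHG8 the higher ones included EPB41L4A-AS1 (1.10, with 51.3% of its exon length shared with EPB41L4A), PVT1 (0.94), SNHG15 (0.81), ZFAS1 (0.77), SNHG5 (0.70) and NEAT1 (0.54), several of them snoRNA host genes. TUG1 was lower (54.6, 50.8 and 38.7 CPM against 22.8, 27.1 and 31.1 CPM). None of 13 mitochondrial mRNAs was called in either direction by edgeR, by DESeq2 or at an unadjusted p under 0.05. Of 42 nuclear genes of the respiratory chain NDUFS4 (0.58) was higher and 5 were lower, led by ATP5F1A (−0.69), of which 1 was left without mutant input 3 and 2 without WT input 1 or WT input 3. That share of lower genes is below the 14.2% of all coding genes, and with only the 6 inputs fitted 5 were higher and 5 lower.

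Line differences also followed position along the genome. Of 94 protein-coding genes of chromosome 21 with a mean log2 CPM of 2 or more, 70 were lower and none higher by edgeR, DESeq2 or an unadjusted p under 0.05, beside 17.3% lower and 8.55% higher among 10092 such genes of the whole genome. Their median log2 difference was −0.58, beside −0.06 for the 10092. In single libraries, the median of chromosome 21 over the WT mean was 0.02, 0.02 and 0.00 in the WT inputs and −0.55, −0.53 and −0.56 in the mutant inputs. LSS, PFKL, TFF3, COL18A1, SUMO3 and CLIC6 are genes of this chromosome named above. Leaving out 1 library left 53 to 64 lower, and 57 of the 94 were lower in the precipitates, with a median of −0.53.

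In windows of 10 Mb with at least 15 such genes (248 windows), the middle of the distribution ran from −0.23 to 0.02 (quartiles). The highest window was 170 to 180 Mb on chromosome 5, where 38 of 56 genes were higher and 1 lower with a median of 0.59. In single libraries it was at −0.02, −0.02 and 0.05 in WT and 0.66, 0.57 and 0.53 in the mutant. STC2, DUSP1 and CANX (0.48), named above, lie there. On the same chromosome the window from 50 to 60 Mb, with ITGA1, ITGA2, NDUFS4 and PLK2, had a median of 0.56 and 10 of 18 genes higher. The window from 180 to 190 Mb on chromosome 4 had a median of 0.45. The window from 20 to 30 Mb on chromosome 19, which is rich in zinc finger genes, had a median of −0.57 with 14 of 17 genes lower, one of −0.36 with the trend in base composition removed and one of −0.26 in the precipitates. By chromosome, 12 (113 higher and 26 lower of 575) and 17 (101 and 32 of 592) leaned higher, and 18 (2 and 50 of 155), 13 (6 and 46 of 162) and X (8 and 89 of 279) leaned lower. Chromosome 5 had 98 higher and 67 lower of 459. The medians of 12, 17, 18, 13 and X were 0.12, 0.13, −0.25, −0.24 and −0.23. With the trend in base composition removed they were 0.14, 0.08, −0.18, −0.14 and −0.21, and in the precipitates 0.15, 0.10, −0.13, −0.05 and −0.16. With scaling by total counts the median of every chromosome was below 0, those of 12 and 17 at −0.32 and −0.31. DNA was not measured, so copy number and transcription cannot be told apart here.

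**Figure D4:**
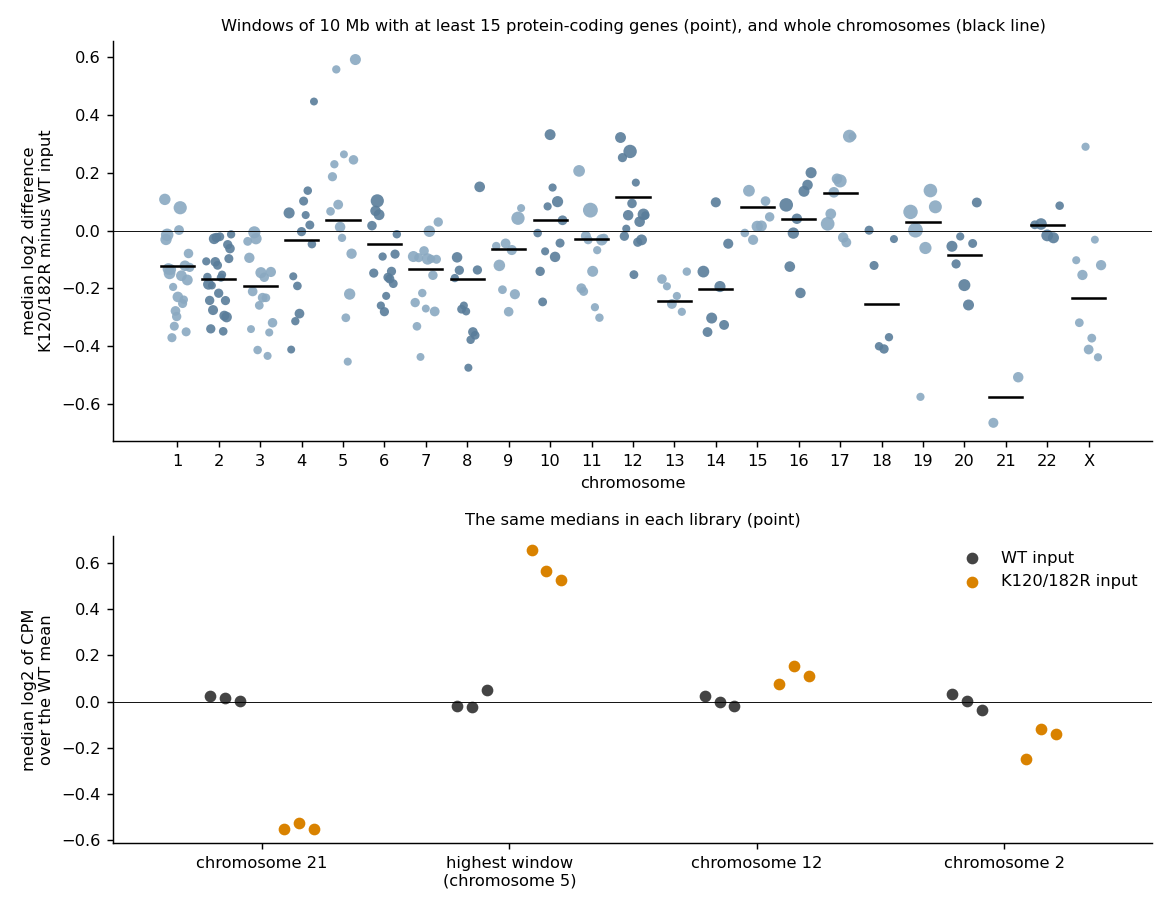
Upper panel: median log2 difference of mutant minus WT inputs for each of 248 windows (points, in order along each chromosome, larger for more genes) and each chromosome (black lines). Lower panel: the median log2 of CPM over the WT mean in each library, where chromosome 21 is at −0.56 to −0.53 in the mutant inputs and near 0 in the WT inputs, and the highest window of chromosome 5 at 0.53 to 0.66.

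Base composition moved with the line difference too. When the 10092 coding genes were divided into 3 equal groups by the GC content of their transcripts, the median log2 difference was −0.23 in the AT-rich, −0.07 in the middle and 0.11 in the GC-rich group. In the precipitates the same medians were −0.02, −0.04 and −0.04. Among single inputs the GC-rich group was highest in mutant input 1 (0.29 over the WT mean) and in WT input 3 (0.13), the 2 libraries that stood together on the second principal component. With the trend removed, 1809 genes were higher and 2473 lower, the medians of the 3 groups lay between −0.08 and −0.03, cholesterol synthesis was at a median of −0.62 and chromosome 21 at −0.59.

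The precipitates of the same lines share no library with the inputs, although they may come from the same lysates. Over 11681 genes with a mean log2 CPM of 2 or more the line difference in inputs and in precipitates had a Pearson r of 0.65 and a Spearman rho of 0.60 across genes, which are not independent replicates. Of the 1716 genes higher in the inputs, 1572 were above 0 in the precipitates and 864 were called higher there, with 1 called lower. Of the 2301 lower genes 2068 were below 0, 1188 were called lower and 9 called higher. These are 38.1% of the 2268 genes called higher and 52.9% of the 2244 called lower in the precipitates, where 19.6% of all genes were called, 9.87% higher and 9.76% lower. Of the top genes, PAQR5 (2.80), RCN1 (1.61), TSPAN8 (1.58), CTSF (−2.13), PWWP3B (−2.30) and SERPINA5 (−1.84) differed by about as much there as in the inputs. AQP3 (1.03), BEX1 (0.98) and IDI2-AS1 (−0.37) differed by less, and FSCN1 (−2.01) by more, without a called difference between the 2 kinds of library. Of the immediate early genes 8 of 23 were higher and 2 lower in the precipitates, with a median of 0.35. CEBPB, at 0.76 in the inputs, was at 0.09 there. The difference between the 2 kinds of library was itself called for 15 genes, or 0.0653%.

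**Figure D5:**
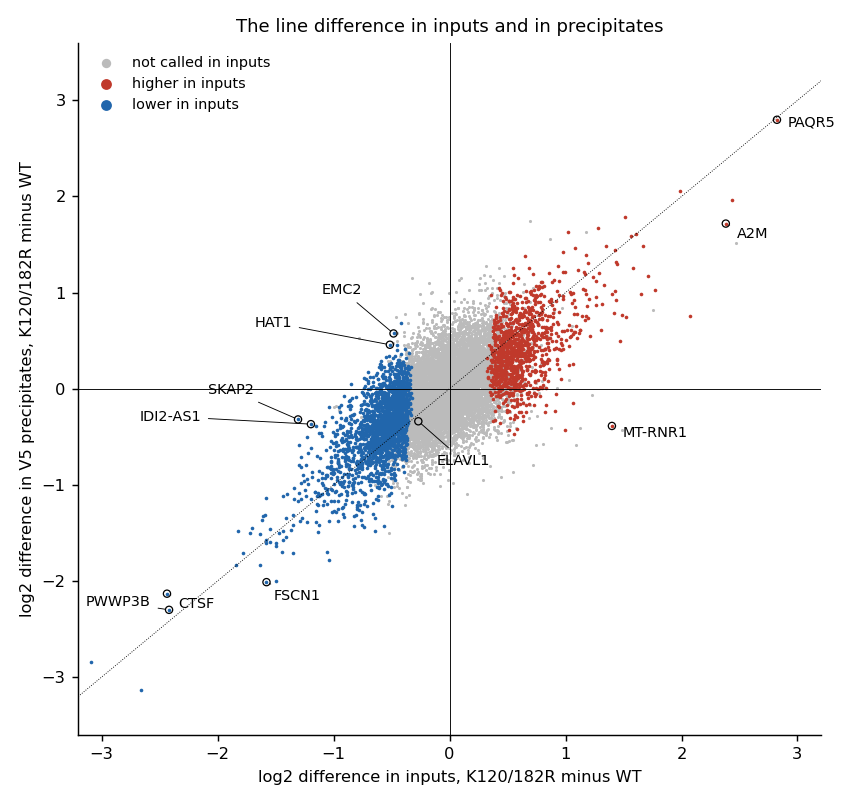
Log2 difference of mutant minus WT in the inputs (horizontal axis) against that in the V5 precipitates (vertical axis) for 11750 genes at a log2 of the mean input CPM plus 0.5 of at least 2, with 2 outside the axes. PAQR5, CTSF and PWWP3B lie near the dotted line of equal difference, and MT-RNR1, EMC2 and HAT1 lie on opposite sides of 0 in the 2 kinds of library.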

How the data were processed

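The deposited values are raw counts of reads per Ensembl gene, 1 file per library; per the submitters' processing notes the authors used bcl2fastq 2.20.0.422, cutadapt, STAR 2.4.0j, featureCounts 1.6.4 and build hg19. Per the labels, stranded total RNA libraries were made from 250 ng of input RNA or 16 to 77 ng of precipitated RNA. Which annotation release and strand setting were used, and how reads with several positions were counted, is not given in the sources used here. GENCODE release 44 on GRCh37 named 55538 of 57773 identifiers, the rest holding up to 21.0% of an input, and gave positions and exon overlap.

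Genes kept by filterByExpr (minimum count 10, minimum total 15) in all 12 libraries were scaled with TMM factors and fitted together in edgeR (robust quasi-likelihood, 4 groups, 8 residual degrees of freedom, common biological coefficient of variation 0.157), with Benjamini-Hochberg adjustment over all 22984 genes. Standard errors come from the F statistic. In simulated counts of 22488 genes, 200 were changed, all drawn from genes at a mean input CPM of at least 4. The fit found 96% of genes changed by 1 log2 unit and 26% of those changed by 0.5, with 4 false among 126 calls. The simulated inputs held no GC trend and fewer changed genes than were called in the data. These rates therefore need not hold for the data or for weaker genes.

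Named genes were, among called genes at a mean log2 CPM of at least 2 without overlap, the 15 highest and 15 lowest coding and 5 and 5 other genes, ELAVL1, and 4 members of each of 33 lists by smallest adjusted p; further members were named after their values were seen. The members and lists were chosen with earlier results of these data known. Some list members are counted but not reported here by name. Lists are described by counts and medians, with no test of a list. Alternatives were DESeq2 size factors, total counts, coding-gene factors, DESeq2's Wald test, other filters, the 6 inputs alone, a fold limit, a replicate block, removal of a GC trend and leaving out each library; 2 were added after seeing the data (without WT input 3 and mutant input 1, and coding genes only). Software was R 4.3.3, edgeR 4.0.16, limma 3.58.1, DESeq2 1.42.0, Python 3.11.15 with pandas 2.3.3 and numpy 2.4.6, Biopython 1.88 and matplotlib 3.10.9.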

Additional observations from a re-analysis of the deposited data

Results flagged for a closer look

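For 4 genes called in the inputs at a mean log2 CPM of at least 2, the line difference in the inputs and that in the V5 precipitates were tested against each other in edgeR and differed (adjusted p = 0.0369 each). SKAP2, an adaptor protein, was lower in the mutant inputs (11.0, 10.8 and 11.5 CPM against 4.74, 4.71 and 4.04 CPM, a log2 difference of −1.31) and at −0.32 in the precipitates, a gap of −0.987. EMC2, a subunit of a membrane protein insertase, was at −0.48 in the inputs and 0.57 in the precipitates, a gap of −1.06. TSNAX, translin-associated factor X, was at −0.42 and 0.68, a gap of −1.10, and shares 10.3% of its exon length with the readthrough gene TSNAX-DISC1. HAT1, a histone acetyltransferase, was at −0.51 and 0.46, a gap of −0.972. In each of the 4 genes the 3 mutant inputs lay below the 3 WT inputs, which their choice among genes called in the inputs favors. The 2 lines did not overlap in 33.7% of all genes.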

How the results depend on the processing

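Both counts of calls changed by over 1.5 times in 3 settings: 386 higher and 6822 lower with scaling by total counts, 54 and 39 when the test asked for a change beyond 1 log2 unit, and, over libraries left out in turn, 964 to 1563 higher and 1231 to 2194 lower, lowest without WT input 1. ELAVL1 passed the threshold only with scaling by total counts (−0.717) and ran from −0.33 to −0.175 with 1 library left out. No direction reversed among called results. Of the 40 genes named by rank, 40 kept their call with each other scaling and the DESeq2 test, 38 to 40 with 1 library left out and 21 in the test beyond 1 log2 unit, which needs a larger difference by construction. The cause of the other changes was not tested. With the replicate block there were 1477 higher and 1576 lower. The deviations of same-numbered libraries correlated with r of −0.39, 0.16 and −0.52, and mutant input 1 went most with WT input 3 (r of 0.61). Deviations from a mean of 3 libraries sum to 0, so these values depend on each other. The numbers were not used to pair the samples in the main fit, and whether same-numbered libraries were handled together was not tested. Low counts limit genes near absence, and differences of 0.5 log2 units were often missed in the simulated counts.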
